A study of Mus musculus with 23 samples.

Results

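MHC class II and dendritic cell genes were followed through bulk liver RNA of 15 mice. The 10 genes were chosen by symbol: *H2-Aa*, *H2-Ab1*, *H2-Eb1*, *H2-DMa*, *Cd74*, *Ciita*, *Flt3*, *Xcr1*, *Clec9a* and *Siglech*. Each matched 1 of the 27179 genes of the count table, and each had reads. The tissue, from female mice, held no visible tumor. Stranded mRNA libraries gave total counts between 24742910 and 32262649 per mouse.

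All mice carried *Alb-Cre*, which drives recombination in cells that express albumin, mainly hepatocytes, and 2 floxed *Trp53* alleles. The 6 Ctrl mice had wild-type *Braf* and 1 floxed *Icmt* allele. By the labels, 5 Ctrl mice had a different strain description from all other mice, and 1, BG3, shared that of the mutants. The 6 ABpIF/+ mice also had 1 floxed *Icmt* allele, and the study's design gives them the conditional oncogenic allele *Braf*CA/+. The sample labels of both mutant groups write the *Braf* genotype as +/+ instead, so the allele is taken from the design text. The 3 ABpIF/F mice differed from them by a pair of floxed *Icmt* alleles in place of 1. *Icmt* encodes the methyltransferase that finishes the processing of prenylated proteins such as RAS. Its mRNA was 30.8 ± 2.72 CPM (read counts scaled to a common library size, mean ± SD, n = 6) in Ctrl, 32.7 ± 3.49 (n = 6) in ABpIF/+ and 15.8 ± 0.711 (n = 3) in ABpIF/F livers. Ages are not in the sample labels.

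MHC class II molecules show peptides from engulfed material to CD4 T cells. An alpha and a beta chain pair in the endoplasmic reticulum around the invariant chain, which is later cut down and exchanged for a peptide with the help of H2-DM. Dendritic cells, B cells and macrophages carry class II, and in the liver these are the dendritic cells of the portal tracts, Kupffer cells, passing B cells and, at a lower level, sinusoidal endothelium. Class II genes are switched on together by the coactivator CIITA, which has no DNA contact of its own and docks on RFX, CREB and NF-Y proteins bound to the X and Y boxes of their promoters. Dendritic cells themselves depend on the receptor FLT3. *Xcr1* and *Clec9a* mark the conventional subset that cross-presents antigen (cDC1), and *Siglech* marks plasmacytoid dendritic cells.

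The stretches just before the start sites of *H2-Aa* and *H2-Eb1* are shown because they hold the class II Y box, given in capitals, in 2 chain genes that moved together. They are RefSeq promoter sequence on GRCm38.p6, each 150 bases ending 1 base before the start site and read 5′ to 3′ on the strand of the gene. *H2-Aa* lies on the minus strand at chr17:34287824-34287973 and *H2-Eb1* on the plus strand at chr17:34305717-34305866.
H2-Aa: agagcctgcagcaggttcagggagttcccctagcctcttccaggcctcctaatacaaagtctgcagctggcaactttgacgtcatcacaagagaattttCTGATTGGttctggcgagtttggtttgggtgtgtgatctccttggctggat
H2-Eb1: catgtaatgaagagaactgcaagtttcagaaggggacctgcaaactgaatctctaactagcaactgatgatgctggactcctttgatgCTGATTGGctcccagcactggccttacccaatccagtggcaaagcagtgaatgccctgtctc
The letters CTGATTGG, searched on both strands, begin 51 bases before the start site in *H2-Aa* and 62 bases before it in *H2-Eb1*. Of 32851 promoters of 300 bases in the same table, 4.1% held them. The shorter CCAAT, which lies inside the Y box on the opposite strand, was in 37.4% of promoters, and *H2-Eb1* had it once more, in the forward direction, 35 bases before the start. The letters CCTAGNNAC, taken for the X box, were in 3.91% of promoters and in no window of a member, which says only that these letters are absent from those windows. The table matched 7 of the 10 genes. Of these, *H2-DMa*, *Flt3*, *Xcr1*, *Clec9a* and *Siglech* had no Y box in their windows, and *H2-DMa* and *Xcr1* had a CCAAT.

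The first question was whether these genes differed between ABpIF/+ and Ctrl livers. These groups differed by the *Braf* allele at 1 floxed *Icmt* allele and, for 5 Ctrl mice, by strain label. The genes were much lower: 8 of the 10 fell, by between 2.65-fold for *H2-DMa* and 5.09-fold for *Xcr1*, and further for *Siglech*. The call needed an edgeR quasi-likelihood p below 0.01 after adjustment over all 27179 genes, and at least a 2-fold change. By that rule 5.35% of all genes were called lower and 4.69% higher. The same 8 genes had no overlap between the groups, with every ABpIF/+ mouse below every Ctrl mouse, as 8.13% of all genes did. The median log2 fold change was -1.84 over the 10 genes and 0 over all genes. The genes without a call were *Flt3* and *Clec9a*. In bulk tissue, fewer cells of a type and less RNA per cell cannot be told apart.

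**Figure D1:**
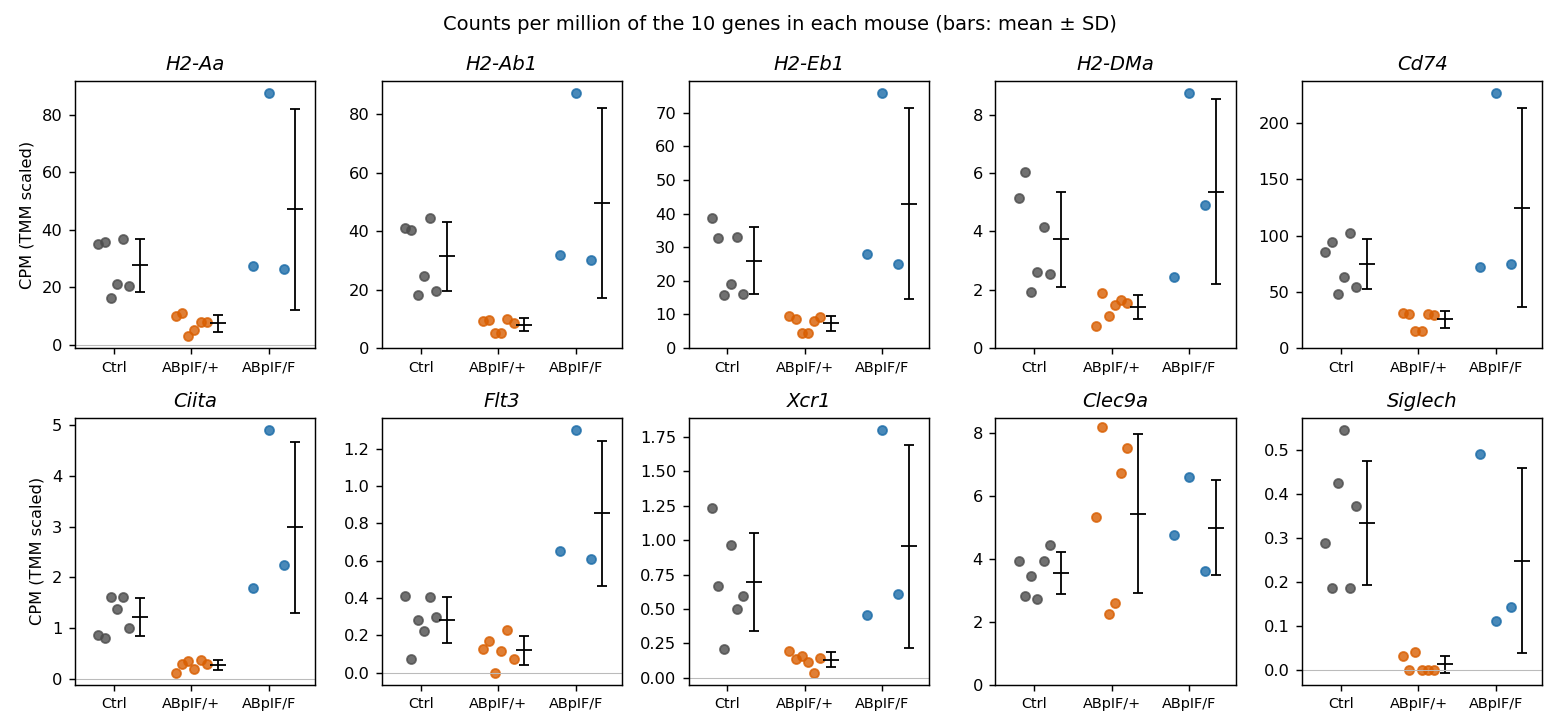
CPM after TMM scaling (vertical axes, linear) of each gene in each mouse, by group (6 Ctrl, 6 ABpIF/+ and 3 ABpIF/F). Points are mice and the bar beside them is the mean ± SD. Except for *Flt3* and *Clec9a*, all ABpIF/+ mice lie below all Ctrl mice, and 1 ABpIF/F mouse, BG38, is highest of all 15 in 8 of the 10 panels.

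The classical chains came first. *H2-Aa* (chr17:34282744-34287823, minus strand) encodes the alpha chain of I-A. Its CPM ran from 16.3 over a median of 28.0 to 36.6 in Ctrl and from 2.98 over 7.79 to 10.9 in ABpIF/+ livers, and was 26.4, 27.2 and 87.5 in the ABpIF/F mice. The Ctrl and ABpIF/+ ranges did not meet, and the log2 fold change in ABpIF/+ vs Ctrl was -1.88 ± 0.39 (SE, adjusted p = 0.00244 by edgeR).

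*H2-Ab1* (chr17:34257689-34269419, plus strand) encodes its partner, the I-A beta chain. It had 18.2, 32.5 and 44.5 CPM as lowest, median and highest in Ctrl and 5.22, 8.89 and 9.96 CPM in ABpIF/+ livers, and 30.1, 31.9 and 87.2 CPM in the ABpIF/F mice. It fell by 1.97 ± 0.34 on the log2 scale in ABpIF/+ vs Ctrl (SE, edgeR adjusted p = 0.000538), a 3.91-fold difference. *H2-Eb1* (chr17:34305867-34316674, plus strand), the I-E beta chain, had 15.9, 26.0 and 38.6 CPM in Ctrl, 4.52, 8.40 and 9.43 CPM in ABpIF/+, and 25.2, 28.0 and 75.9 CPM in ABpIF/F livers. Its fall, by 1.80 ± 0.35 (edgeR adjusted p = 0.00138), was of the same order. The gene for the I-E alpha chain, *H2-Ea*, was listed at 0 counts in all 15 mice, and mice of the B6 background carry a null allele of it.

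The chaperones followed the chains. *Cd74* (chromosome 18) encodes the invariant chain. It had 48.3, 74.1 and 102 CPM as lowest, median and highest in Ctrl and 15.2, 30.0 and 31.4 CPM in ABpIF/+ livers, and 72.0, 75.0 and 227 CPM in the ABpIF/F mice. The log2 fold change in ABpIF/+ vs Ctrl was -1.55 ± 0.33 (SE, edgeR adjusted p = 0.00264). *H2-DMa* (chr17:34119541-34139101, plus strand), the alpha chain of the peptide exchanger, ran from 1.91 to 6.03 CPM in Ctrl and from 0.767 to 1.88 CPM in ABpIF/+ livers, so that its groups were close to meeting. The ABpIF/F mice had 2.45, 4.89 and 8.75 CPM. It fell by 1.41 ± 0.33 in ABpIF/+ vs Ctrl (edgeR adjusted p = 0.00229), the smallest of the 8 changes.

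Per kilobase of exon, on CPM divided by the length of all annotated exons, the order in Ctrl livers was *Cd74* at 44.4 ± 13.3 (SD, n = 6), *H2-Eb1* at 13.4 ± 5.15, *H2-Ab1* at 12.2 ± 4.64, *H2-Aa* at 7.24 ± 2.43 and *H2-DMa* at 1.08 ± 0.475. The means of *H2-Eb1* and *H2-Ab1* differed by less than 1 SD. *Ciita* stood at 0.128 ± 0.0387 CPM per kilobase. In ABpIF/+ livers the same 6 genes kept this order, from 15.1 ± 4.69 for *Cd74* to 0.0291 ± 0.0103 for *Ciita*.

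*Ciita* (chr16:10480059-10528418, plus strand) is the coactivator of all of these genes. It had few reads, 21 to 52 per mouse in Ctrl, 4 to 10 in ABpIF/+ and 55 to 177 in ABpIF/F livers. As CPM these were 0.819, 1.19 and 1.62 (lowest, median, highest) in Ctrl, 0.128, 0.301 and 0.377 in ABpIF/+, and 1.79, 2.25 and 4.90 in the ABpIF/F mice, and the 3 groups did not overlap at any point. *Ciita* fell by 2.13 ± 0.35 on the log2 scale in ABpIF/+ vs Ctrl (SE, edgeR adjusted p = 6.93e-05), a 4.39-fold difference.

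*Xcr1* (chr9:123852315-123862029, minus strand), the receptor that cDC1 use to find XCL1, had 6 to 30 reads per mouse in Ctrl and 1 to 6 in ABpIF/+ livers. This was 0.212, 0.633 and 1.23 CPM (lowest, median, highest) in Ctrl, 0.0377, 0.142 and 0.192 CPM in ABpIF/+, and 0.457, 0.607 and 1.80 CPM in the ABpIF/F mice. It fell by 2.35 ± 0.50 in ABpIF/+ vs Ctrl (edgeR adjusted p = 0.000983), although the lowest Ctrl mouse was only just above the highest ABpIF/+ mouse.

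*Siglech* (chr7:55768178-55778925, plus strand), a lectin of plasmacytoid dendritic cells, was nearly without reads in ABpIF/+ livers. The 6 Ctrl mice had 57 reads in all, between 5 and 17 each, and the 6 ABpIF/+ mice had 2, with 4 of them at 0. Scaled to depth, Ctrl exceeded ABpIF/+ by 27.7-fold, with a 95% exact binomial interval from 7.32 to 234 that covers counting error only. The call over mice had an edgeR adjusted p of 0.000158. The ABpIF/F mice had 15, 4 and 4 reads.

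*Flt3* (chr5:147330741-147400489, minus strand), the receptor for the dendritic cell growth factor FLT3L, had 2 to 13 reads per mouse in Ctrl and 0 to 6 in ABpIF/+ livers. The ranges overlapped, from 0.0744 to 0.410 CPM and from 0 to 0.226 CPM. Its log2 fold change of -1.20 had a 95% interval from -2.34 to -0.06 and did not pass (edgeR adjusted p = 0.124). Its unadjusted edgeR p was 0.0396.

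*Clec9a* (chr6:129408862-129424763, plus strand), the cDC1 receptor for the actin of dead cells, did not follow the rest between groups. It ran from 2.73 over 3.69 to 4.44 CPM in Ctrl, from 2.26 over 6.03 to 8.19 CPM in ABpIF/+ livers, and was 3.61, 4.76 and 6.59 CPM in the ABpIF/F mice. Its log2 fold change in ABpIF/+ vs Ctrl was 0.62, with an interval from 0.04 to 1.19 (edgeR adjusted p = 0.117). In the annotation its first bases overlap the end of *Clec1b* on the same strand, a lectin receptor gene found in platelets and, in the liver, Kupffer cells. Reads of the shared stretch cannot be told apart, so the value of *Clec9a* is uncertain. *Clec1b* had 8.27 CPM on average in Ctrl, 8.79 CPM in ABpIF/+ and 10.7 CPM in ABpIF/F livers. The mice with high *Clec9a* had high *Clec1b*: over the 15 mice the log2 CPM of the pair correlated at r = 0.78, and at 0.84 once group means were removed. The part of shared reads, or of the cell content of each mouse, in this correlation was not tested. The correlation of *Clec9a* with *Xcr1*, the other cDC1 receptor, was -0.18 and 0.03 on the same scales. With *Flt3* it was 0.31 and 0.65. Once group means were removed, its correlations with the other members ran from -0.24 for *Siglech* to 0.69 for *H2-Aa*.

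**Figure D2:**
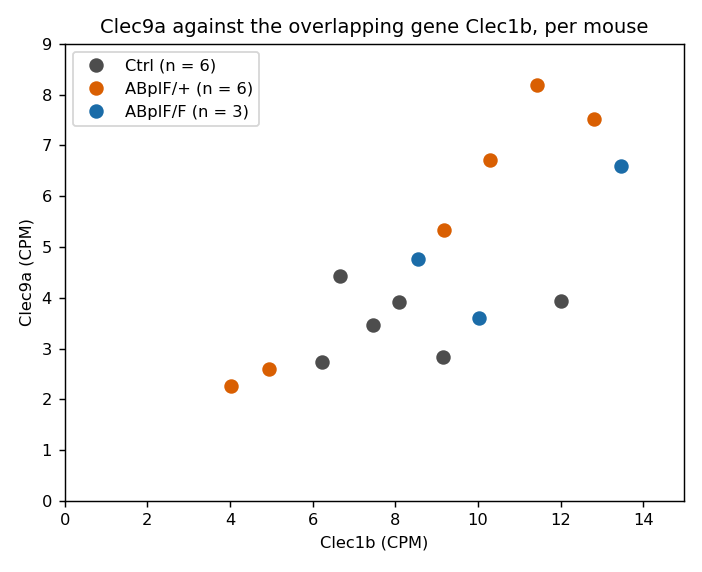
CPM of *Clec9a* (vertical) against CPM of *Clec1b* (horizontal) in each mouse, coloured by group. Within the ABpIF/+ mice the 2 genes rise together, from 2.26 CPM of *Clec9a* in BG31, which also has the least *Clec1b*, 4.03 CPM.

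The second question was whether the genes differed between ABpIF/F and Ctrl livers. None of the 10 was called by the edgeR method used throughout, where 4.55% of all genes were called higher and 2.38% lower. Unadjusted, 2 had a p under 0.05. DESeq2 called 1 of them, *Ciita*, and the edgeR 4 form of the test called both, *Ciita* (adjusted p = 0.00409) and *Flt3* (adjusted p = 0.0067). By the method used throughout, *Ciita* was at a log2 fold change of 1.29 (95% interval from 0.54 to 2.03, edgeR adjusted p = 0.014), and *Flt3* at 1.59 (interval from 0.43 to 2.75, edgeR adjusted p = 0.0545). In these 2 genes all 3 ABpIF/F mice were above all Ctrl mice, as in 9.27% of all genes. For the classical chains and *Cd74* the estimates lay between 0.67 and 0.78, with intervals that held both 0 and a 2-fold rise.

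The ABpIF/F estimates of the class II genes rested largely on BG38. This mouse was highest of all 15 in 8 of the 10 genes, and its 227 CPM of *Cd74* compare with 72.0 and 75.0 CPM in the other ABpIF/F mice. The exceptions were *Clec9a*, which was higher in some ABpIF/+ mice, and *Siglech*, which was lowest of the ABpIF/F mice in BG38 and highest in BG183. Without BG38 the log2 fold changes in ABpIF/F vs Ctrl became -0.04 for *H2-Aa*, -0.02 for *H2-Ab1* and -0.02 for *Cd74*. Those of *Ciita* and *Flt3* became 0.72 and 1.15, in place of 1.29 and 1.59, and neither was called. BG38 also had the most leukocyte transcripts: the gene *Ptprc*, which encodes the common leukocyte antigen CD45, was at 34.8 CPM in it and at 18.4 and 9.59 CPM in BG90 and BG183.

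The third comparison, ABpIF/+ vs ABpIF/F, asks what differed with the second floxed *Icmt* allele among mice with the *Braf* allele. Here 9 of the 10 genes were lower in ABpIF/+, all but *Clec9a*, where 5.49% of all genes were called lower and 1.76% higher. The same 9 did not overlap between the groups, as 9.54% of all genes did. *Ciita* differed most clearly, with a log2 fold change of -3.42 ± 0.39 (SE, edgeR adjusted p = 4.06e-06), 10.7-fold. The chains *H2-Aa*, *H2-Ab1* and *H2-Eb1* were 6.30-, 6.22- and 5.78-fold lower, *Cd74* 4.90-fold and *H2-DMa* 3.83-fold. *Flt3* was 6.92-fold lower (edgeR adjusted p = 0.00172) and *Xcr1* 7.05-fold (edgeR adjusted p = 0.000892). *Clec9a* differed by 0.12 on the log2 scale, with an interval from -0.57 to 0.82. This comparison shares the ABpIF/+ mice with the first, so the calls are not independent of each other.

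Without BG38, 6 of the 10 genes were still called lower in ABpIF/+ than in ABpIF/F livers, with smaller differences in all but *Siglech*. Their log2 fold changes were then -1.84 for *H2-Aa*, -1.95 for *H2-Ab1*, -1.84 for *H2-Eb1*, -1.53 for *Cd74*, -2.86 for *Ciita* and -4.28 for *Siglech*. *H2-DMa* (edgeR adjusted p = 0.0211), *Flt3* (edgeR adjusted p = 0.0254) and *Xcr1* (edgeR adjusted p = 0.0367) were then not called, with log2 fold changes of -1.39, -2.35 and -1.97. Some clock genes also differed in this comparison: of 10 measured, *Npas2* was called lower and *Tef* and *Hlf* higher in ABpIF/+. A score of *Bmal1*, *Npas2*, *Clock* and *Cry1* minus *Dbp*, *Nr1d1*, *Nr1d2*, *Per3*, *Tef* and *Hlf*, in mean log2 CPM, ran from -1.91 to 0.89 in the ABpIF/F mice and from -5.12 to -4.05 in ABpIF/+, although *Cry1* and *Nr1d1* had medians that ran against it. In Ctrl livers malpa387 was at -0.85, inside the ABpIF/F range, and the other Ctrl mice lay between -5.88 and -4.96. The score was therefore hard to separate from the ABpIF/F group in a fit. With this score as a covariate 1 of the 10 genes, *Ciita*, was called, at a log2 fold change of -3.82. The 8 genes that were then not called had values from -4.93 for *Siglech* to -1.07 for *H2-DMa*, with edgeR adjusted p between 0.0137 and 0.283. Those of *H2-Aa*, *H2-Ab1* and *Cd74* were -2.34, -2.28 and -1.96. The part of the score in the difference was not tested.

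**Figure D3:**
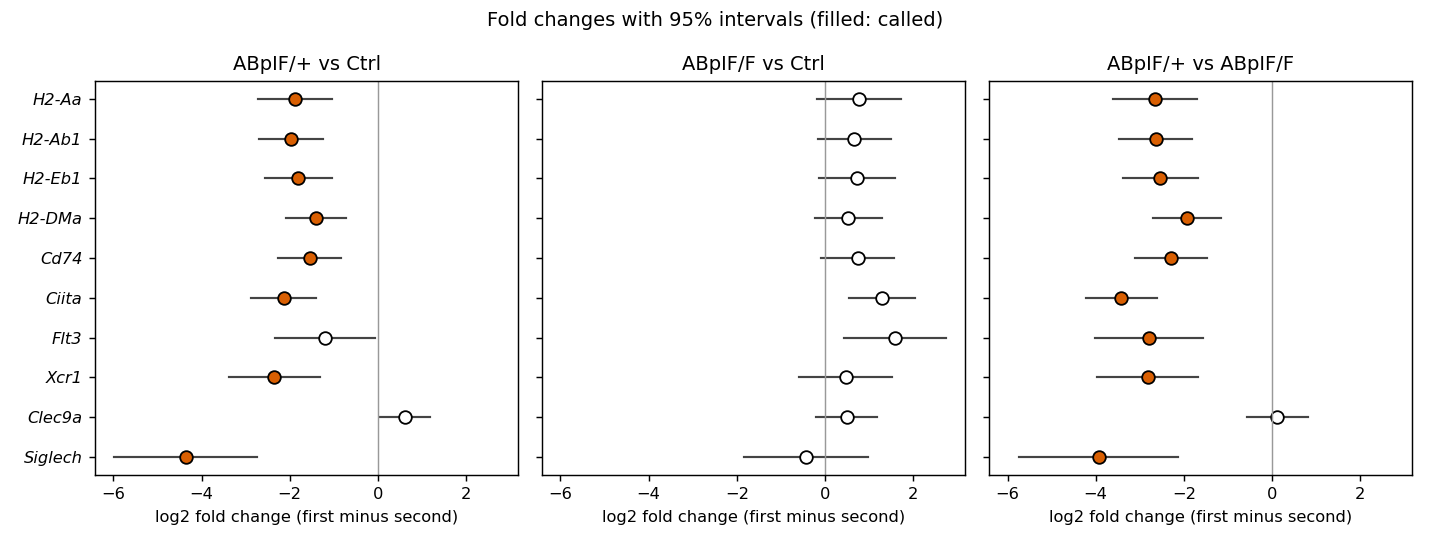
Log2 fold changes (horizontal axes, first group minus second) of the 10 genes in the 3 comparisons, with 95% intervals as lines. Filled circles are called genes: 8 in ABpIF/+ vs Ctrl, 0 in ABpIF/F vs Ctrl and 9 in ABpIF/+ vs ABpIF/F.

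Strain labels were divided between the groups. The labels give 5 Ctrl mice a different strain description from all other mice, and only the Ctrl mouse BG3 shared that of the mutants. BG3 had 40.9 CPM of *H2-Ab1*, 5.12 times the ABpIF/+ mean, 85.3 CPM of *Cd74*, 3.35 times, and 0.861 CPM of *Ciita*, 3.11 times. *Clec9a* was lower in BG3, at 3.94 CPM, 0.725 times its ABpIF/+ mean. These are values of 1 mouse. With the strain label as a covariate, BG3 alone carries the contrast in ABpIF/+ vs Ctrl. The log2 fold changes were then -2.35 for *H2-Ab1*, -1.63 for *Ciita* and -3.17 for *Xcr1*, against -1.97, -2.13 and -2.35 without it. Fewer of the 10 genes were then called, and a fit that rests on 1 mouse cannot separate strain from genotype.

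Of 6 remaining chains and peptide editors of the pathway, 5 of them with reads, 3 fell in ABpIF/+ vs Ctrl, none rose, and the same 3 were lower in ABpIF/+ than in ABpIF/F livers. *H2-DMb1*, the first beta chain of H2-DM, had a log2 fold change of -1.75 in ABpIF/+ vs Ctrl (edgeR adjusted p = 0.000882). *H2-DMb2* had -2.12 and *H2-Ob*, the beta chain of the H2-DM inhibitor H2-O, had -2.60. *H2-Oa* and *H2-Eb2* were at a median of 0.130 and 0.139 CPM in Ctrl livers and were not called.

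None of the 7 listed factors that bind class II promoters was called in any of the 3 comparisons by edgeR or by DESeq2, and 3, 2 and 5 of them had an unadjusted edgeR p under 0.05 in ABpIF/+ vs Ctrl, ABpIF/F vs Ctrl and ABpIF/+ vs ABpIF/F. Their median log2 fold change in ABpIF/+ vs Ctrl was -0.17. *Rfx5*, a subunit of RFX, had 7.02 CPM as the median in Ctrl, 4.89 CPM in ABpIF/+ and 10.9 CPM in ABpIF/F livers. *Rfxap* went the other way, with medians of 12.6, 17.6 and 9.33 CPM. The NF-Y subunits *Nfya*, *Nfyb* and *Nfyc*, whose complex binds the Y box shown above, had log2 fold changes of -0.17, -0.39 and 0.30 in ABpIF/+ vs Ctrl, of which that of *Nfyb* passed the adjusted p (0.00899) but not the 2-fold limit.

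Of 7 genes of antigen processing and class II turnover, 1 rose and none fell in ABpIF/+ vs Ctrl. This was *Ctsl*, a protease of the lysosome, with medians of 459 CPM in Ctrl, 1123 CPM in ABpIF/+ and 522 CPM in ABpIF/F livers. *Ctss*, which trims the invariant chain in antigen-presenting cells, had medians of 32.1, 18.3 and 53.7 CPM and was called lower in ABpIF/+ vs ABpIF/F only. *Marchf8*, a ubiquitin ligase, had 114 CPM in Ctrl, 71.6 CPM in ABpIF/+ and 71.3 CPM in ABpIF/F livers as medians, with log2 fold changes of -0.68 and -0.72 that were under the 2-fold limit.

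Costimulation was divided. *Cd86*, a ligand of CD28, fell in ABpIF/+ vs Ctrl, by 1.57 on the log2 scale, as did *Cd274*, which encodes PD-L1, by 1.27. *Cd40* rose: its medians were 0.609 CPM in Ctrl, 5.28 CPM in ABpIF/+ and 4.04 CPM in ABpIF/F livers, and it was called higher in both against Ctrl, by 3.03 and 2.64 on the log2 scale. *Icosl* was called higher in ABpIF/F vs Ctrl (2.50). *Cd80* and *Pdcd1lg2* were not called in any comparison.

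Interferon gamma is a strong inducer of *Ciita* outside dendritic and B cells. Its own gene *Ifng* was nearly without reads in all groups, with a median of 0.0160 CPM in Ctrl and 0.0184 CPM in ABpIF/+ livers. Of 10 genes of this axis, 3 fell and 1 rose in ABpIF/+ vs Ctrl. *Gbp2*, a GTPase gene induced by interferon, had medians of 9.41 CPM in Ctrl, 3.45 CPM in ABpIF/+ and 10.0 CPM in ABpIF/F livers. The chemokine genes *Cxcl9* and *Cxcl10* and *Gbp2* had log2 fold changes of -2.75, -1.76 and -1.35, and the receptor gene *Ifngr1* had 1.07. The same 3 genes were called lower in ABpIF/+ vs ABpIF/F. In ABpIF/F vs Ctrl *Ifngr1* rose and the other 9 were not called.

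Among ligands and partners of the 10 genes, 3 of 6 fell in ABpIF/+ vs Ctrl, and the same 3 were lower in ABpIF/+ than in ABpIF/F. *Xcl1*, the ligand of XCR1, had medians of 0.175 CPM in Ctrl, 0.0171 CPM in ABpIF/+ and 0.322 CPM in ABpIF/F livers. *Cd44*, which pairs with the invariant chain at the cell surface, had 7.81, 3.35 and 12.7 CPM. *Cd4*, the class II coreceptor, had 0.817, 0.264 and 1.08 CPM. *Flt3l*, *Mif* and *Lag3* were not called in any comparison, and *Flt3l*, the ligand of FLT3, had 4.88, 4.02 and 5.32 CPM.

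Markers of dendritic subsets were followed by list. Of 11 further cDC1 genes, 2 fell in ABpIF/+ vs Ctrl, *Wdfy4* (log2 fold change -1.40) and *Ifi205* (-3.91), and *Snx22* rose, while *Batf3*, the factor that cDC1 need, had medians of 0.628 and 0.613 CPM. Several of these genes are also expressed by other liver cells, such as *Cadm1* at a median of 24.7 CPM in Ctrl. Of 8 cDC2 genes 1 fell, of 12 plasmacytoid genes 1 fell and 1 rose, and of 9 genes of mature dendritic cells 2 fell, *Ccr7* (-3.04) and *Fscn1* (-2.45). Most of these 9 went the other way: their median log2 fold change in ABpIF/+ vs Ctrl was 0.91, and DESeq2 called 4 of them. Of all genes, 5.35% were called lower and 4.69% higher in this comparison. *Itgax*, which encodes CD11c, had medians of 1.42 CPM in Ctrl, 0.637 CPM in ABpIF/+ and 3.11 CPM in ABpIF/F livers and was called only between the last pair.

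Markers of several other cells were also called in ABpIF/+ vs Ctrl, where 5.35% of all genes were called lower and 4.69% higher. Of these lists, 4 of 8 leukocyte genes, 5 of 12 B cell genes and 7 of 8 hepatic stellate cell genes were lower and none was higher. Of 16 Kupffer cell and macrophage genes 7 were lower, and 2, *Trem2* and *Gpnmb*, were higher. In the remaining lists 1 of 12 T cell genes and 1 of 8 sinusoidal endothelial genes were lower, 2 of 10 monocyte genes were lower and 1 higher, 1 of 8 cholangiocyte genes was lower and 2 higher, and of 10 neutrophil genes 1 was higher. *Ptprc* had a log2 fold change of -1.47, the B cell receptor genes *Cd79a* and *Cd79b* had -1.78 and -1.83, and the Kupffer cell gene *Clec4f* had -1.23. *Lrat*, a stellate cell gene, had -2.48. The summed level of the 8 leukocyte genes ran from 50.4 to 68.5 CPM in Ctrl, from 18.7 to 42.6 CPM in ABpIF/+ and from 55.4 to 181 CPM in ABpIF/F livers. Summed B cell genes ran from 5.93 to 9.06, from 0.726 to 3.49 and from 8.97 to 18.6 CPM, with *Ebf1* at 0 in all 6 ABpIF/+ mice. The part of each cell type in the class II difference was not tested.

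Of 8 hepatocyte genes 1 was called in ABpIF/+ vs Ctrl, *Trf*, which encodes transferrin and was higher. Their summed level, most of it *Alb* and *Trf*, ran from 117141 to 156980 CPM in Ctrl and from 200630 to 276319 CPM in ABpIF/+ livers, while *Ttr*, *Apoa2* and *Cps1* had lower medians in ABpIF/+. In ABpIF/F vs Ctrl, where 4.55% of all genes were called higher, 9 of 10 neutrophil, 6 of 10 monocyte and 6 of 8 cholangiocyte genes were called higher by edgeR. Of 12 B cell genes 0 were called by edgeR or DESeq2, and 2 had an unadjusted edgeR p under 0.05. The ABpIF/F mice differed widely. Their neutrophil sums were 5.06, 35.7 and 93.1 CPM, against 2.51 to 4.45 CPM in Ctrl. Their monocyte sums were 66.8, 174 and 297 CPM, against 70.5 to 98.7 CPM, and their cholangiocyte sums 238, 815 and 1200 CPM, against 50.2 to 88.4 CPM. The monocyte receptor gene *Ccr2* had medians of 1.08 CPM in Ctrl, 0.54 CPM in ABpIF/+ and 9.43 CPM in ABpIF/F livers.

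**Figure D4:**
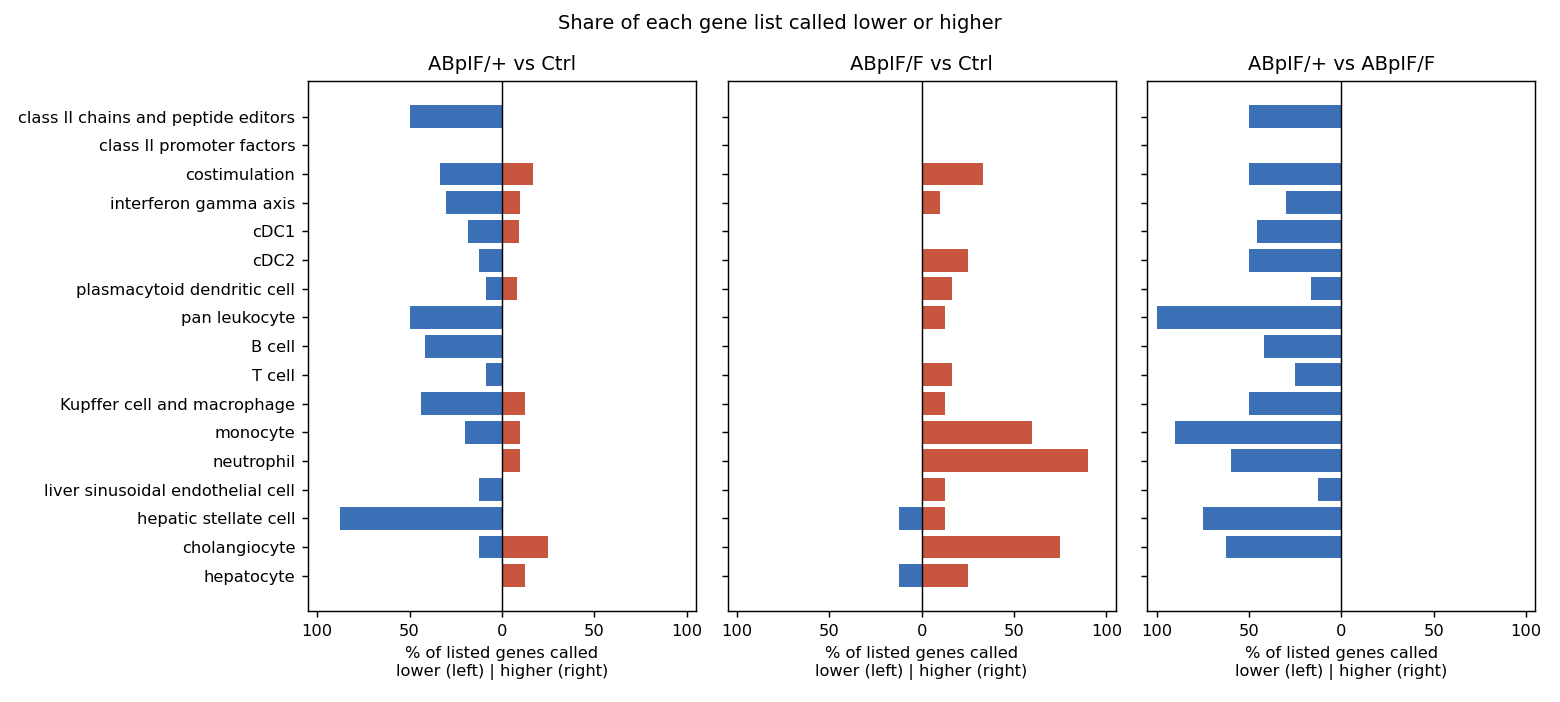
Share of the genes of each list (6 to 16 genes a list) called lower, to the left, or higher, to the right, in the 3 comparisons. In ABpIF/+ vs Ctrl the bars for class II chains, leukocytes, B cells and stellate cells point only to lower levels. So do the shorter bars for cDC2, T cells and sinusoidal endothelium. Those for Kupffer cells point to both sides, and no promoter factor of class II is called in any panel.

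The sum of *H2-Aa*, *H2-Ab1*, *H2-Eb1*, *H2-DMa* and *Cd74* was set against the leukocyte sum in each mouse. It was 163 ± 54.2 CPM (SD, n = 6) in Ctrl, 49.7 ± 15.1 (n = 6) in ABpIF/+ and 270 ± 187 (n = 3) in ABpIF/F livers. Per CPM of leukocyte genes there were 2.67 ± 0.575 CPM of class II in Ctrl, 1.62 ± 0.206 in ABpIF/+ and 2.42 ± 0.681 in ABpIF/F livers. The ratio ran from 2.00 to 3.22 in Ctrl and from 1.45 to 2.03 in ABpIF/+. These ranges overlapped: BG175 of ABpIF/+, at 2.03, was above the Ctrl mice malpa454 and malpa462, at 2.00 and 2.02. Set against *Ptprc* alone, the ratio was 15.8 ± 5.42 in Ctrl, 14.1 ± 2.72 in ABpIF/+ and 13.2 ± 4.10 in ABpIF/F livers, and all 3 ranges overlapped. No test was made on these ratios.

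**Figure D5:**
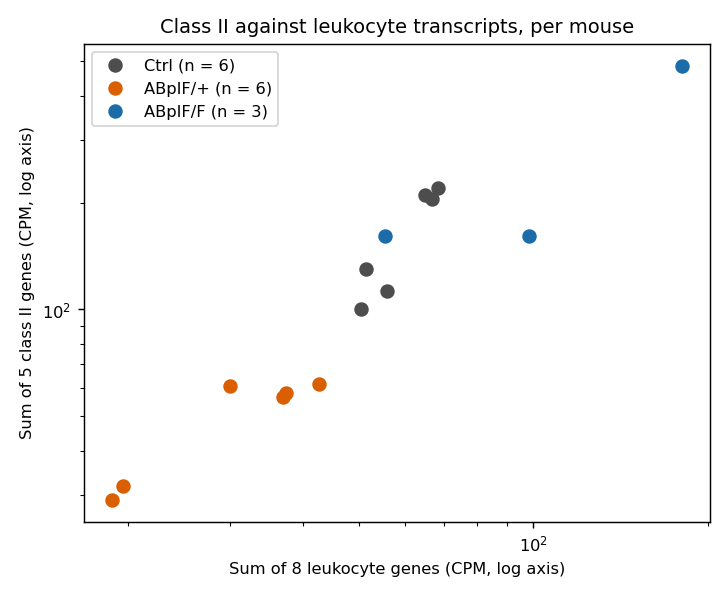
Sum of the 5 class II genes (vertical, CPM, log axis) against the sum of the 8 leukocyte genes (horizontal, CPM, log axis) in each mouse. The ABpIF/+ mice lie at the lower left, between 29.0 and 61.8 CPM of class II, and BG38 at the upper right, at 486 CPM of class II and 181 CPM of leukocyte genes.

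The 5 class II genes rose and fell together from mouse to mouse. The 10 pairs among them had Pearson correlations of log2 CPM between 0.88 and 0.99 over the 15 mice, and between 0.64 and 0.98 after group means were removed. In Ctrl livers the mice BG3, malpa387 and malpa459 had between 85.3 and 102 CPM of *Cd74* and the other 3 had between 48.3 and 62.9 CPM. In ABpIF/+ livers BG31 and BG40 were lowest in *Cd74*, at 15.2 and 15.4 CPM, against 29.4 to 31.4 CPM in the other 4, and these 2 mice also had the least *Ptprc*, 1.61 and 1.97 CPM.

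*Ciita* kept to this only across the groups. Its correlation with *H2-Ab1* was 0.87 over the 15 mice and 0.25 after group means were removed, and with *H2-Aa* 0.82 and 0.11. In Ctrl livers BG3 and malpa387 had the least *Ciita*, 0.861 and 0.819 CPM, and yet 40.9 and 40.4 CPM of *H2-Ab1*, whereas malpa454 had the most *Ciita*, 1.62 CPM, and the least *H2-Ab1*, 18.2 CPM. These *Ciita* values rest on 21 to 52 reads per Ctrl mouse. *Siglech* ran against the class II genes within groups, with correlations between -0.87 for *H2-DMa* and -0.57 for *H2-Eb1*, at 0 to 17 reads per mouse.

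Other genes had patterns close to these. Among 12204 genes that averaged 1 CPM or more, those nearest to *H2-Ab1* by Pearson correlation of log2 CPM over the 15 mice were *Lbh*, *Cotl1*, *Ppic*, *Sp100* and *Ckb*, from 0.97 to 0.96, and from 0.86 to 0.79 after group means were removed. *Ciita* was nearest to *Spsb1* at 0.96, and *Ifi209*, *Cmklr1* and *Wdfy4* were also among its 5 nearest, the last at 0.94. *Flt3* was nearest to *Hip1*, *Basp1*, *Adcy3*, *Dbn1* and *Rab8b*, from 0.92 to 0.89. These values describe mice that share 3 genotypes, and removing the group means took them for *Ciita* to between 0.60 and 0.94 and for *Flt3* to between 0.64 and 0.80.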

How the data were processed

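Frozen liver gave Trizol-extracted RNA, which was made into stranded mRNA libraries. The authors aligned paired-end reads with HISAT2 to mm10 (GRCm38) and counted them with featureCounts 2.0.8, as the submitters' processing notes and methods give it; annotation and strand setting of the counting are not given in the sources used here. The deposited values are raw counts per gene, 1 column per mouse, without normalization. The 23 samples name 15 mice, 8 of them by 2 samples, so the mouse was the replicate, and libraries of one mouse could not be told apart. A second deposited table gave gene symbols and the same counts in the 10 columns compared; 5 of its columns of per-sample values were not used. Its columns of fold changes and p-values of the authors' own comparisons were not used.

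Counts of all 27179 genes were scaled by TMM and fitted in R 4.3.3 with edgeR 4.0.16 (quasi-likelihood test in its older form, robust, 3 groups in 1 fit). P-values were adjusted by Benjamini-Hochberg over all genes, and a call needed a value below 0.01 and a log2 fold change of 1 or more in either direction. The SE is the log2 fold change over the root of F. CPM are TMM scaled, and log2 CPM used a prior count of 2. The p-values measure spread between these mice. Exon lengths and positions are from GENCODE M21 (GRCm38), and promoters from RefSeq (GRCm38.p6). The fit was tested on simulated data. True 4-fold changes in ABpIF/+ vs Ctrl were called for 97% of changed genes at 1 CPM or more and 45% at 0.3 to 1 CPM.

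The 10 genes and all lists were chosen with earlier results of these data known, and lists were described by counts, without a set test; 2 genes are not reported here. Named are the 10 genes, up to 4 called genes per pathway list and comparison, any gene of lists of up to 7, all ligand genes, leading or called markers, and the 5 genes nearest in pattern to *H2-Ab1*, *Ciita* and *Flt3*; *Ifng*, *Clec1b*, *Wdfy4*, *Ifi205*, *Snx22*, *Cd79a*, *Cd79b*, *Ebf1*, *Trf*, *Ttr*, *Apoa2*, *Cps1*, *Trem2* and *Gpnmb* were chosen after their values were seen. Alternatives were RLE size factors, DESeq2 1.42.0, filterByExpr, the edgeR 4 method, no robust estimation, other thresholds, fits on only the groups compared, strain label or clock gene score as covariates, the other table, and leaving out each mouse.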

Additional observations from a re-analysis of the deposited data

How the results depend on the processing

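The 8 calls among the 10 genes in ABpIF/+ vs Ctrl and the 9 in ABpIF/+ vs ABpIF/F kept their number within 1.5 times under RLE size factors, DESeq2, filterByExpr, the edgeR 4 method, no robust estimation, other p limits, fits on 2 groups and the other table. A log2 limit of 2 in place of 1 left 3 of the 10 genes in ABpIF/+ vs Ctrl, and 21, 26 and 51 of the listed genes in ABpIF/+ vs Ctrl, ABpIF/F vs Ctrl and ABpIF/+ vs ABpIF/F, in place of 59, 43 and 82. The strain label as a covariate left 1 of the 10 genes and 18 listed genes in ABpIF/+ vs Ctrl and 6 listed genes in ABpIF/F vs Ctrl; the clock gene score left 1 of the 10 and 9 listed genes in ABpIF/+ vs ABpIF/F and 3 listed genes in ABpIF/F vs Ctrl, and the cause was not tested. With the clock gene score the 8 genes that lost their call had log2 fold changes from -4.93 to -1.07 in ABpIF/+ vs ABpIF/F. In ABpIF/F vs Ctrl, where 0 of the 10 genes were called, DESeq2 called 1, the edgeR 4 method 2 (*Ciita* and *Flt3*) and an adjusted p under 0.05 gave 1.

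Leaving out each mouse in turn gave 8 to 8 of the 10 genes in ABpIF/+ vs Ctrl, 0 to 1 in ABpIF/F vs Ctrl (1, *Ciita*, without BG183) and 6 to 9 in ABpIF/+ vs ABpIF/F (6 without BG38), and 47 to 64, 26 to 51 and 44 to 92 listed genes; without BG38 these were 26 in ABpIF/F vs Ctrl and 44 in ABpIF/+ vs ABpIF/F. *Siglech* was not called in ABpIF/+ vs ABpIF/F without BG183. No paired analysis was possible because the labels name mice and give no replicate numbers shared between groups. Reads of *Flt3*, *Xcr1* and *Siglech* were too few in most mice to measure small differences, and larger ones could also be missed.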
